A study of Mus musculus with 12 samples.

Results

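The expression of 10 fetal liver and oncofetal genes, chosen by name from 55450 genes in each table, was examined in libraries labelled as primary mouse hepatocytes with reduced or increased Cebpa. The genes were Afp, H19, Igf2, Dlk1, Gpc3, Igf2bp1, Igf2bp2, Igf2bp3, Peg3 and Cdkn1c. CEBPA, a bZIP factor, drives many genes of the mature hepatocyte. RNA-Seq was performed on 12 libraries in 4 groups of 3, and the questions the design asks are how loss and gain of Cebpa change these genes. WT hepatocytes were from Cebpa fl/fl mice, and KO hepatocytes were from mice that lose these alleles through albumin-Cre, whose promoter is active in hepatocytes and in their fetal precursors. GFP hepatocytes were exposed to an adenovirus for green fluorescent protein (Ad-GFP) and OE hepatocytes to an adenovirus for mouse Cebpa (Ad-m-Cebpa). For GFP and OE the labels give neither the Cebpa genotype of the mice nor the time of exposure or culture, and they give no age for any group. The study describes such adenovirus cultures as made from WT hepatocytes and gives an exposure time for them in other assays, but whether either holds for these libraries is not given in the sources used here.

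The fetal liver makes a set of products that are switched off around birth and can return in hepatocellular carcinoma or during regeneration, hence the term oncofetal. Several of them are imprinted, that is, transcribed from the allele of a single parent. H19 and Igf2 are neighbours that share an imprinting control region and are expressed from the maternal and the paternal allele, respectively. The 3 IGF2BP proteins bind RNA and stabilize growth-related mRNAs, and Igf2bp1 and Igf2bp3 are usually silent in adult tissues.

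The genes lie on 6 autosomes and on the X chromosome of the mouse genome (GRCm38, mm10, GENCODE M21). Afp is at chr5:90490737-90508907 on the plus strand, next to its family members Alb and Afm. H19 (chr7:142575529-142578143), Igf2 (chr7:142650766-142666816) and Cdkn1c (chr7:143458339-143461050), all on the minus strand, lie in the imprinted cluster at the distal end of this chromosome. Peg3 lies elsewhere on the same chromosome at chr7:6703892-6730431. Dlk1 is at chr12:109452823-109463336 and Gpc3 at chrX:52272426-52613950. Igf2bp1 is at chr11:95957163-96005940, Igf2bp2 at chr16:22059009-22163299 and Igf2bp3 at chr6:49085223-49214957. Igf2 shares its strand with the annotated gene Gm49394 and H19 contains the microRNA gene Mir675, while antisense genes overlap Afp, H19, Igf2, Gpc3, Igf2bp1, Igf2bp3 and Cdkn1c. Whether counting used strand was not given in the sources used here, so reads of these partners may be included in the values.

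RefSeq start sites were found for 7 of the 10 genes, in 10 windows, and 3 of these upstream sequences (build GRCm38.p6) are shown because Afp and Peg3 fell and Igf2bp3 rose in OE against GFP. Capitals mark matches to the C/EBP patterns TTNNGCAA and TGNNGCAA, searched on both strands in the 250 bases before the start, where matches did not overlap. Afp is at chr5:90490464-90490713 (plus strand), Peg3 at chr7:6730432-6730669 (minus strand) and Igf2bp3 at chr6:49214958-49215204 (minus strand), and bases inside the GENCODE gene were left out.
Afp: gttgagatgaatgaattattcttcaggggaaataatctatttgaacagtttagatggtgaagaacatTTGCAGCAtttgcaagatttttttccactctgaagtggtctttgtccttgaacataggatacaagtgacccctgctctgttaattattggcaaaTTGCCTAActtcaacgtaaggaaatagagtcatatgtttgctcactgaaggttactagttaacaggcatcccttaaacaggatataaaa
Peg3: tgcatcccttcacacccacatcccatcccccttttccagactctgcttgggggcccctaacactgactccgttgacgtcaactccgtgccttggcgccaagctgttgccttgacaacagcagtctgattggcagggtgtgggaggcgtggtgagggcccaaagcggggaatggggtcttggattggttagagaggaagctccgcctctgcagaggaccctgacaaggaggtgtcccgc
Igf2bp3: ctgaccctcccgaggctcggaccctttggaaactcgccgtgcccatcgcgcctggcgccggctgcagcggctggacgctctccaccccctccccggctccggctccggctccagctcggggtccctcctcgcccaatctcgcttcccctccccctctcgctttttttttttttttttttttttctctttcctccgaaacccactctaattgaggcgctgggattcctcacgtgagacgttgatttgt
The Afp sequence held 2 C/EBP matches, TTGCAGCA at -183 to -176 and TTGCCTAA at -89 to -82 relative to the RefSeq start, which lies 23 bases before the GENCODE start. It also held the letters TATAAA at -7 to -2. No other member window held a C/EBP match. Of all 32851 windows of this length, 18.1% held a C/EBP match and 12.4% the letters TATAAA. These matches describe the letters only.

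The libraries held 20160081 to 23304230 counts each. Levels are TMM-scaled counts relative to the library total (CPM), with 1 scaling for the 12 libraries, and are followed by the standard deviation (SD, n = 3). Fold changes, with the standard error (SE), come from edgeR's quasi-likelihood test within each pair of groups, and p values were adjusted by the Benjamini-Hochberg method. Cebpa itself was 472, 358 and 446 CPM in the WT libraries. In KO it was 1.46, 0.383 and 0.254 CPM. It was 31.1, 33.0 and 35.3 CPM in GFP and 8713, 8921 and 9220 CPM in OE, so the labels were matched by the targeted gene in both experiments. Cebpa was 13.6-fold lower in GFP than in WT (log2 fold change -3.77 ± 0.12, adjusted p 3.14e-08). The GFP and OE libraries stood apart from the WT and KO libraries. Summed over 8 hepatocyte markers, the WT libraries held 163900 to 168200 CPM, the KO libraries 183200 to 216700, the GFP libraries 15530 to 15930 and the OE libraries 7220 to 7557, and no marker of the list was at 0 in any group. All 8 were lower in GFP than in WT, as were 15 of 15 adult hepatocyte genes (median log2 fold change -6.79, against 0.13 over all genes tested). Of all genes tested in that comparison, 38.4% fell. Cyp7a1, one of the 15, was 0.0420 CPM in GFP and passed the filter on low counts through WT. The size of these drops depends on scaling. In TPM, which was not scaled by TMM, Alb was 54550 in WT and 14080 in GFP, against 114400 and 11560 CPM. On log2(TPM + 1) limma called all 15 adult hepatocyte genes as lower in GFP but did not call Hnf4a, one of the 8 markers. Fetal and proliferation-linked genes differed too, in that Sox4 was 0.0219 CPM in WT and 181 CPM in GFP, Cd24a 0 and 129, Hmga2 0 and 17.8, Uhrf1 0.0224 and 60.5, and the pyruvate kinase gene Pkm 1.51 and 327 CPM. Except for Pkm, these genes were at or near 0 in WT. Fetal liver and hepatoblast genes beyond the members were a list of 22, of which 16 were tested in GFP against WT. Of these 13 rose and 3 fell, Lpl the most (log2 fold change -3.95 ± 0.34), where 45.0% of all genes tested rose. Among those that rose, Cd24a, Hmga2, Bex1 and Sox11 were at 0 CPM in WT. Sox4, Epcam, Spink1, Prom1 and Hk2 were at most 0.0671 CPM there. These genes passed the filter on low counts through GFP, where they are high, so the count of genes that rose supports nothing. Whether the GFP and OE libraries come from the same kind of cell as WT and KO rests on the labels and was not tested. Mitochondrial genes took 5.94 to 6.92% of counts in WT and KO and 0.875 to 1.76% in GFP and OE.

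**Figure D1:**
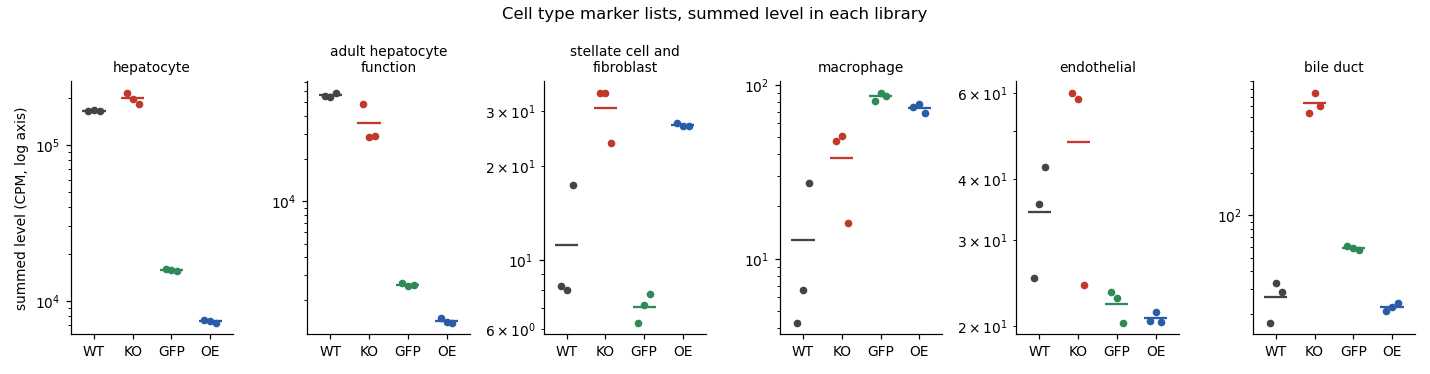
Summed CPM (log axis) of marker lists in each library of WT, KO, GFP and OE, where points are libraries and lines are group means. Hepatocyte markers were 15530 to 15930 in GFP against 163900 to 168200 in WT, and the bile duct sum of 537 to 748 in KO was mostly Spp1 (575), while Krt19, Krt7, Epcam and Cftr were lower in KO than in GFP.

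Markers of other cells also differed among the groups. For 12 stellate cell and fibroblast markers the sum was 8.05 to 17.3 CPM (WT), 23.6 to 34.4 CPM (KO), 6.29 to 7.81 CPM (GFP) and 26.8 to 27.4 CPM (OE). Reln alone gave 19.3 CPM of the OE sum. In OE against GFP 5 of these markers were tested, of which 3 rose and 0 fell, where 43.9% of all genes tested rose. Beside Reln, Dcn rose from 0.957 to 4.68 CPM and Col3a1 from 0.384 to 1.24 CPM. Col1a1, the main fibroblast collagen, was 0.468 CPM in GFP and 0.491 CPM in OE and was not called. The 10 macrophage markers summed to 81.1 to 90.1 CPM in GFP and 69.1 to 77.6 in OE, of which Cd68, a lysosomal protein, gave 85.4 and 72.0 CPM, while the Kupffer cell markers Adgre1, Clec4f, Marco and Timd4 were at 0 in GFP. The 9 endothelial markers summed to 20.3 to 23.6 CPM in GFP and 20.4 to 21.4 in OE. In these bulk libraries, fewer cells of a type and less RNA per cell cannot be told apart, and the part of cell composition in the results for GFP and OE was not tested.

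The largest change between OE and GFP among the 7 members tested was that of Afp, the alpha-fetoprotein gene, whose product is the main serum protein of the fetal liver. The Afp level was 169, 181 and 162 CPM in GFP and 2.24, 1.67 and 2.03 CPM in OE. All OE libraries were far below all GFP libraries and above all WT and KO libraries, which held 0 to 0.657 CPM. Afp was thus 86.1-fold lower in OE than in GFP (log2 fold change -6.43 ± 0.07, adjusted p 1.31e-17). In WT it was 0.420, 0.335 and 0.657 CPM, from 5 to 10 counts, and in KO it was 0.438, 0 and 0.636 CPM. These groups overlapped, and the ratio of their summed counts was 0.796 (95% exact binomial interval 0.389 to 1.60, counting error only). Afp did not pass the filter on low counts, so a change after loss of Cebpa as small as this ratio was not detectable at this depth. Afp was 336-fold higher in GFP than in WT (log2 fold change 8.39 ± 0.14, adjusted p 1.91e-09). That comparison differs in virus and possibly in culture, batch and mice, which cannot be told apart, and it shares the WT and GFP libraries with the other comparisons.

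**Figure D2:**
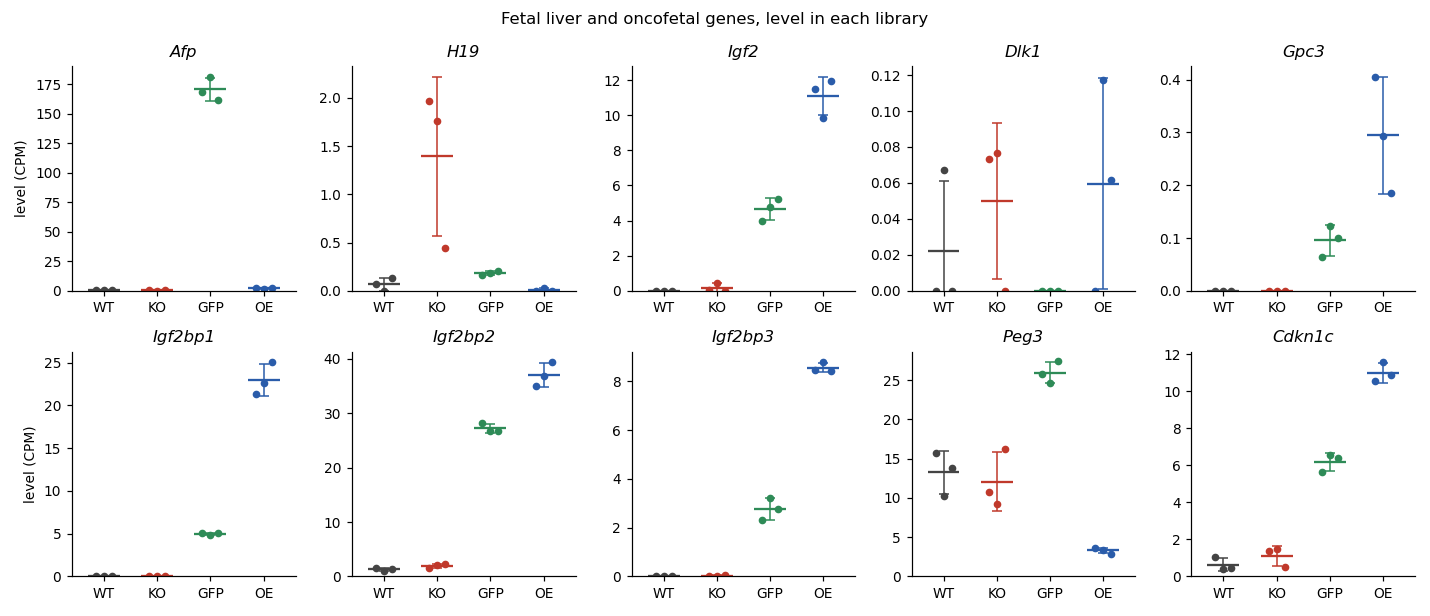
Level (CPM, linear axis from 0) of each of the 10 genes in each library, where points are libraries, lines are group means and bars are SD (n = 3). Afp was 162 to 181 CPM in GFP and at most 2.24 CPM in the other groups, while Igf2, Igf2bp1, Igf2bp2, Igf2bp3, Gpc3 and Cdkn1c had their highest levels in OE and Peg3 its lowest, at 2.89 to 3.63 CPM.

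All 7 members tested in OE against GFP were called (5 rose and 2 fell), where 86.6% of the 14889 genes tested were called (43.9% rose and 42.7% fell), so passing the test did not set them apart. For KO against WT 0 of 3 members tested were called by edgeR where 1.71% of 11846 genes were called (0.692% rose and 1.02% fell), and 0 had an unadjusted p under 0.05, where 13.9% of all genes did, so 3 genes are too few to read anything from. DESeq2, which tested more genes of low count, called 1 member, H19. In GFP against WT 7 of 7 members tested rose, where 83.3% of 13760 genes were called (45.0% rose and 38.4% fell). Igf2, Igf2bp1 and Igf2bp3 had no counts in WT and Afp and Cdkn1c had 5 to 15, so these genes passed the filter through the GFP libraries, where they are high, and their count supports nothing. With library totals in place of TMM the median log2 fold change of all genes in that comparison was 1.36, and the values of the members measured in WT were 9.62 for Afp, 5.55 for Igf2bp2, 4.42 for Cdkn1c and 2.12 for Peg3. Of these, Afp and Cdkn1c passed the filter through GFP, so their place above that median supports nothing.

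**Figure D3:**
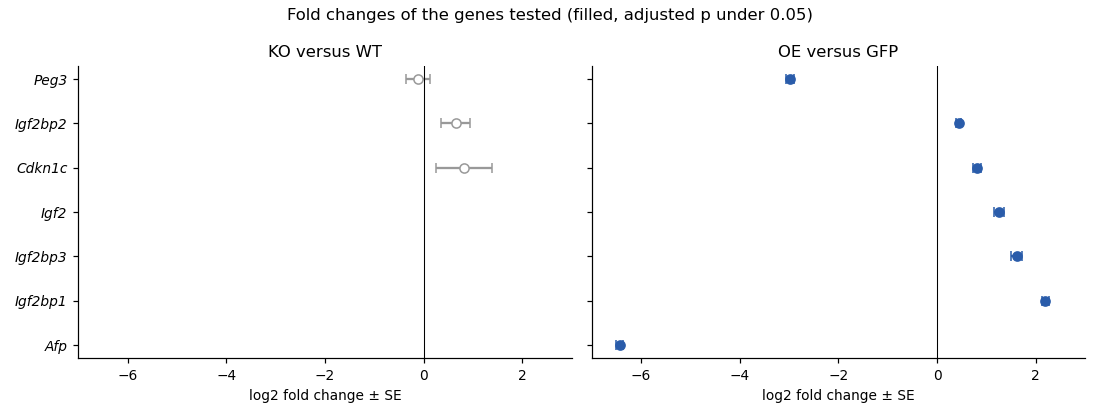
Log2 fold change ± SE of each gene that passed the filter in KO versus WT (3 genes) and OE versus GFP (7 genes), where filled points passed an adjusted p of 0.05. Afp and Peg3 lie left of 0 and the other 5 right of 0 in OE versus GFP, and the 3 KO values lie between -0.12 and 0.82.

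Genes of the albumin family and known regulators of Afp were then examined as a list of 14, all of them tested. In OE against GFP 5 rose, 7 fell and 2 did not pass (median log2 fold change -0.23). Of all genes tested, 43.9% rose and 42.7% fell. The neighbours of Afp fell as well, but by less, with Alb at 11560 ± 298 CPM in GFP and 4981 ± 134 in OE (log2 fold change -1.22 ± 0.03) and Afm, which encodes the vitamin E carrier afamin, at 8.59 and 5.11 CPM (-0.76 ± 0.09). Gc, which encodes the vitamin D binding protein, fell from 3571 to 902 CPM (-1.99 ± 0.04, adjusted p 1.67e-15). Among the regulators, Hnf4a, a nuclear receptor of hepatocyte identity, fell from 292 to 60.5 CPM (-2.28 ± 0.04, adjusted p 2.86e-16), and Trp53 fell as well (-1.46 ± 0.03, adjusted p 4.65e-15). Zbtb20, a postnatal repressor of Afp, was 105 ± 14.6 CPM in GFP and 101 ± 5.97 in OE (-0.06 ± 0.07, adjusted p 0.458). DESeq2 did not call Zbtb20 either, but limma did on log2(TPM + 1) and log2(TPM + 0.1), where 6 of the 14 rose and 6 fell. Zhx2, the other known postnatal repressor of Afp, rose from 28.2 ± 0.122 to 38.1 ± 1.37 CPM (0.43 ± 0.04, adjusted p 2.99e-07). Loss of Cebpa gave 0 calls among the 14 genes in edgeR and limma and 1 in DESeq2 (Alb), and 4 had an unadjusted p under 0.05 in edgeR (13.9% of all genes did), among them Trp53 (0.47 ± 0.15, adjusted p 0.236) and Alb (0.40 ± 0.15, adjusted p 0.300).

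Igf2, which encodes the fetal growth factor IGF-II, was higher in OE than in GFP. Its level was 3.97, 4.75 and 5.20 CPM in GFP and 11.5, 9.86 and 11.97 CPM in OE, and the groups did not overlap. The change was 2.38-fold (log2 fold change 1.25 ± 0.11, adjusted p 4.04e-08). WT libraries held no Igf2 counts, which allows a level of up to 0.0676 CPM over the group (3 counts), and KO libraries held 1, 6 and 0 counts, or 0.0730, 0.460 and 0 CPM. Igf2 was therefore at least 68.7-fold higher in GFP than in WT when WT is set at the floor of 3 counts, and the exact 95% lower limit of the count ratio was 55.6. Of the 7 counts in KO 6 were in 1 library, and the edgeR test without a filter gave an adjusted p of 0.498.

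H19, the maternally expressed noncoding neighbour of Igf2, showed another order of groups. It was highest in KO, with 1.97, 1.76 and 0.445 CPM from 27, 23 and 7 counts, against 0.0700, 0 and 0.131 CPM in WT from 1, 0 and 2 counts. All KO libraries were above all WT libraries, and the ratio of summed counts was 19.9 (95% interval 6.46 to 99.2). The KO library with 7 counts kept H19 below the filter. Without a filter the edgeR test gave a log2 fold change of 4.20 ± 0.88 (adjusted p 0.0422) and DESeq2 gave 4.39 ± 1.15 (adjusted p 0.00580). Where H19 passed the filter with 1 library left out, the adjusted p was 0.0256 without KO replicate 3 and 0.318, 0.271 and 0.183 without WT replicates 1, 2 and 3, while the log2 fold change was 4.65 without KO replicate 3 and 4.24, 3.67 and 5.04 without the WT replicates. The fold stayed large and the call was kept or lost with the libraries and the filter. Markers of other cells moved in the same libraries, in that the endothelial sum was 60.0, 58.2 and 24.3 CPM and the macrophage sum 47.4, 50.7 and 16.1 CPM in KO replicates 1 to 3, against 25.1, 35.5 and 42.2 CPM and 4.27, 6.57 and 27.4 CPM in WT. The stellate sum was 34.3, 34.4 and 23.6 CPM in KO and 8.27, 8.05 and 17.3 CPM in WT, and the part of such cells in the H19 counts was not tested. In GFP H19 was 0.161, 0.184 and 0.200 CPM and in OE 0, 0.0294 and 0 CPM, a ratio of 0.0532 (95% interval 0.00127 to 0.339). In that comparison H19 was below the filter as well, and the edgeR test without a filter gave an adjusted p of 0.00156.

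The 3 genes of the IGF2BP family rose in OE. Igf2bp1 was 5.10, 4.81 and 5.04 CPM in GFP and 21.3, 22.6 and 25.05 CPM in OE (4.58-fold, log2 fold change 2.19 ± 0.08, adjusted p 2.04e-12). Igf2bp3 was 2.32, 3.22 and 2.77 CPM in GFP and 8.47, 8.78 and 8.43 CPM in OE (3.06-fold, 1.61 ± 0.11, adjusted p 3.90e-09). Igf2bp2, the member that adult tissues keep, was 28.2, 26.7 and 26.7 CPM in GFP and 35.0, 36.8 and 39.4 CPM in OE (1.35-fold, 0.44 ± 0.05, adjusted p 1.53e-06). For each of the 3 genes every OE library was above every GFP library. In WT neither Igf2bp1 nor Igf2bp3 had a count, which allows up to 0.0676 CPM, and in KO Igf2bp1 had 0 counts and Igf2bp3 had 1. With WT at the floor of 3 counts, Igf2bp1 was at least 73.7-fold and Igf2bp3 at least 41.1-fold higher in GFP than in WT, and the exact 95% lower limits of the count ratios were 59.7 and 33.2. Igf2bp2 was present in all libraries, with 1.47, 1.07 and 1.31 CPM in the WT and 1.61, 2.07 and 2.29 CPM in the KO group. These groups did not overlap, but the difference did not pass the test (0.65 ± 0.29, adjusted p 0.378). In GFP Igf2bp2 was 19.9-fold higher than in WT (4.31 ± 0.12, adjusted p 1.39e-08).

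The size of the Igf2bp1 and Igf2bp3 changes differed between counts and TPM, the transcript abundance for which RSEM divides counts by an effective length taken from the mixture of isoforms. The effective length of Igf2bp1 was 2172, 1645 and 1889 bases in GFP and 4244, 3858 and 4806 bases in OE, with no overlap. For Igf2bp3 it was 4160, 4157 and 4158 bases in GFP and 3025, 3333 and 3385 bases in OE. GENCODE lists for Igf2bp1 a coding transcript of 8378 bases and 4 processed transcripts of 576 to 1108 bases, and for Igf2bp3 a coding transcript of 4345 bases beside 4 others. On the log2(TPM + 1) scale with limma the change of Igf2bp1 was 1.203 ± 0.10, from 5.24, 6.61 and 6.03 TPM in GFP to 13.9, 16.3 and 14.8 TPM in OE. That of Igf2bp3 was 1.75 ± 0.11, from 1.25, 1.75 and 1.51 TPM to 7.75, 7.35 and 7.05 TPM, and 2.23 ± 0.15 on the log2(TPM + 0.1) scale. The direction was the same on both scales. For Igf2bp2 the effective lengths overlapped (3278 to 3286 bases in GFP and 3131 to 3376 bases in OE) and for Igf2 they did too (2019 to 2831 bases and 2258 to 2756 bases). On log2(TPM + 1) Igf2bp2 changed by 0.74 ± 0.07 and Igf2 by 1.30 ± 0.09, against 0.44 and 1.25 from counts. TPM was not scaled by TMM, and the median of all genes tested was 0.27 on that scale, against 0.01 from counts. The part of effective length in these differences was not tested.

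**Figure D4:**
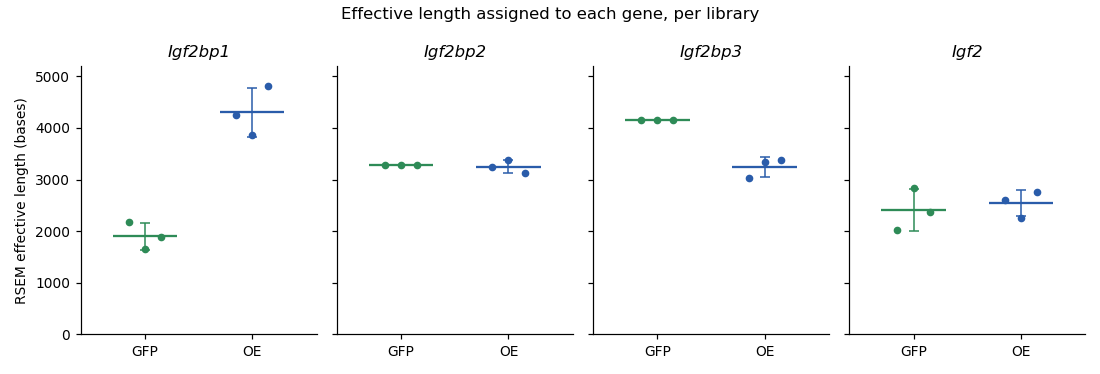
RSEM effective length in bases (linear axis from 0) of Igf2bp1, Igf2bp2, Igf2bp3 and Igf2 in each GFP and OE library, where points are libraries, lines are group means and bars are SD (n = 3). Igf2bp1 was 1645 to 2172 bases in GFP and 3858 to 4806 in OE, and the groups overlap for Igf2bp2 and Igf2.

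Peg3, a paternally expressed zinc finger gene, was the other member that fell in OE. Its level was 25.8, 24.7 and 27.4 CPM in GFP and 3.63, 3.405 and 2.89 CPM in OE, with every OE library below the libraries of all other groups. Peg3 was 7.86-fold lower in OE than in GFP (log2 fold change -2.97 ± 0.08, adjusted p 1.25e-13). On the log2(TPM + 1) scale the change was -1.95 ± 0.10. Peg3 was the only one of the 10 genes above 10 CPM in WT on average, at 15.7, 10.3 and 13.8 CPM. In KO it was 10.7, 9.19 and 16.3 CPM. Those groups overlapped (-0.12 ± 0.25, adjusted p 0.862). The sign turned when WT replicate 1 (0.03) or KO replicate 2 (0.04) was left out. Between GFP and WT it rose 1.85-fold (0.88 ± 0.14, adjusted p 0.000461), and the change was 2.12 with library totals and 1.66 on log2(TPM + 1).

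Cdkn1c, which encodes the cyclin-dependent kinase inhibitor p57 and is expressed from the maternal allele, rose in OE. Its level was 5.65, 6.56 and 6.37 CPM in GFP and 10.5, 11.6 and 10.9 CPM in OE (1.76-fold, log2 fold change 0.82 ± 0.08, adjusted p 2.44e-07). WT libraries held 1.05, 0.403 and 0.460 CPM of Cdkn1c and KO libraries 1.39, 1.45 and 0.508 CPM, so these groups overlapped (0.82 ± 0.57, adjusted p 0.557). Cdkn1c was 9.16-fold higher in GFP than in WT (3.20 ± 0.28, adjusted p 1.20e-05). Kcnq1ot1, the paternally expressed antisense transcript of the same imprinted domain, was 1.67 ± 0.144 CPM in GFP and 6.66 ± 0.875 CPM in OE and rose too (1.98 ± 0.14, adjusted p 3.67e-09). Kcnq1ot1 was named after its values were seen.

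Other imprinted genes were examined as a list of 34, of which 26 were tested in OE against GFP. Of these 15 rose, 8 fell and 3 did not pass, where 43.9% of all genes tested rose and 42.7% fell. The median log2 fold change was 0.93 in the list, against 0.01 over all genes tested. Zdbf2, Rian and Ascl2 were at most 0.0746 CPM in GFP and passed the filter through OE, where they are high. Airn, at 0.190 CPM in OE, passed it through GFP. The direction of these genes was set by the filter, so the count and the median are not read further. The lowest p values were in Slc22a18, a transporter gene of the Cdkn1c domain, which fell from 51.2 to 12.95 CPM (-1.99 ± 0.04, adjusted p 1.18e-14), in Gnas, the stimulatory G protein alpha subunit (-1.27 ± 0.03, adjusted p 3.83e-14), and in Asb4, which rose from 0.426 to 15.4 CPM (5.15 ± 0.14, adjusted p 8.01e-14). The members were on both sides of the list, with Igf2 and Cdkn1c among the genes that rose and Peg3 with the second lowest change after Dio3 (-3.53 ± 0.11). Slc22a18 and Cdkn1c, both on the maternally expressed side of the same domain, moved in opposite directions. Between KO and WT 0 of 17 imprinted genes tested were called by edgeR (median -0.01, against 0.01 over all genes tested), 0 by DESeq2 and 0 by limma, and 4 had an unadjusted p under 0.05, against 13.9% of all genes. The lowest p was in Snrpn (-0.64 ± 0.19, adjusted p 0.190), Phlda2 (1.838 ± 0.58, adjusted p 0.222) and Grb10 (1.49 ± 0.62, adjusted p 0.349).

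**Figure D5:**
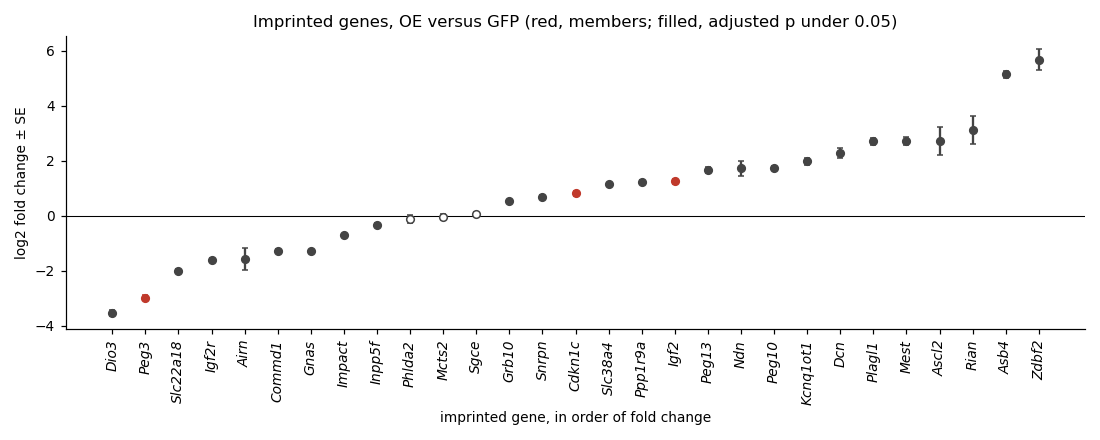
Log2 fold change ± SE in OE versus GFP of 26 other imprinted genes (grey) and of Igf2, Peg3 and Cdkn1c (red), in order of size, where filled points passed an adjusted p of 0.05. The values run from -3.53 in Dio3 to 5.68 in Zdbf2, with Peg3 second from the left.

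Genes that maintain imprints were a list of 8, of which 3 rose and 5 fell in OE against GFP (median log2 fold change -0.56). Among those that fell, Dppa3 was at 0 CPM in OE and passed the filter through GFP, so its direction was set by the filter. In that comparison 43.9% of all genes tested rose and 42.7% fell. Uhrf1 (-1.87 ± 0.05, adjusted p 3.59e-14) and Dnmt1 (-1.59 ± 0.04, adjusted p 7.29e-14), which together copy DNA methylation after replication, fell, and so did Trim28 (-0.81 ± 0.03, adjusted p 1.23e-12), a corepressor at imprinting control regions. In KO against WT 0 of 5 tested were called by edgeR, DESeq2 or limma, and 1 had an unadjusted p under 0.05, against 13.9% of all genes. That gene was Dnmt3b (0.70 ± 0.18, adjusted p 0.132).

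Gpc3, an X-linked cell surface proteoglycan and a marker of hepatocellular carcinoma, was near the limit of detection. It had 0 counts in the 3 WT and 3 KO libraries, which allows up to 0.0676 CPM in WT and 0.0706 CPM in KO. In GFP it was 0.0645, 0.123 and 0.1001 CPM from 2, 4 and 3 counts, and in OE 0.406, 0.294 and 0.185 CPM from 15, 10 and 6 counts. The OE libraries were above the GFP libraries, at a ratio of summed counts of 3.11 (95% interval 1.45 to 7.44). Gpc3 was below the filter, and its adjusted p was 0.0187 in edgeR without a filter and 0.0829 in DESeq2. In 4 fits with 1 library left out it passed the filter, with an adjusted p of 0.00573 to 0.0434.

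Dlk1, a paternally expressed membrane protein that marks hepatoblasts, was not measurable in any group. It had 0, 1 and 0 counts in WT, 1, 1 and 0 in KO, none in GFP and 0, 4 and 2 in OE, or at most 0.117 CPM in a library. The difference between OE and GFP had an adjusted p of 0.0574 in edgeR without a filter, and OE replicate 1 had 0 counts like the GFP libraries. Meg3, the maternally expressed noncoding RNA of the Dlk1 domain, was by contrast 20.5, 1.48 and 7.68 CPM in the WT group, 31.3, 21.3 and 10.2 CPM in the KO group and under 0.1 CPM in all GFP and OE libraries. The WT and KO groups overlapped (log2 fold change 1.10 ± 0.79, adjusted p 0.569). Meg3 was named after its values were seen.

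Compared per length, the order of the members differed between groups. In WT Peg3 led at 1.58 ± 0.363 TPM, followed by Cdkn1c at 0.410 ± 0.286, Igf2bp2 at 0.400 ± 0.151 and Afp at 0.253 ± 0.0611 TPM, and the last 3 did not differ beyond their spread. In KO Peg3 (1.43 ± 0.516 TPM), H19 (1.06 ± 0.435) and Cdkn1c (0.880 ± 0.485) overlapped. In GFP Afp led at 213 ± 13.4 TPM, far above Igf2bp2 at 18.6 ± 0.465, Cdkn1c at 11.5 ± 0.747 and Peg3 at 7.13 ± 0.565 TPM. In OE Igf2bp2 (29.9, 30.5 and 35.6 TPM) and Cdkn1c (25.4 ± 1.59) led without overlap, Igf2bp1 (13.9 to 16.3) and Igf2 (12.2 ± 0.0551) followed, and Afp (3.23 ± 0.730) and Peg3 (1.11 ± 0.127) were the lowest of the 7 that passed the filter.

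Other fetal liver and hepatoblast genes were a list of 22. Between KO and WT 8 were tested and 3 rose (median log2 fold change 0.79), where 0.692% of all genes tested rose. Of the 3, Spink1 was 0.0438 CPM in WT and 2.94 CPM in KO. It passed the filter through KO, where it is high, so its place in that count supports nothing. The 3 were Spink1, a trypsin inhibitor (5.80 ± 0.66, adjusted p 0.0114), Lpl, lipoprotein lipase (2.93 ± 0.36, adjusted p 0.0144), and Sox9, a factor of bile duct and progenitor cells (2.02 ± 0.32, adjusted p 0.0335). Each lost its call when WT replicate 1 was left out, with Spink1 lost without WT replicate 2 and Sox9 without WT replicate 2 or 3 as well, and over all alternatives the adjusted p reached 0.0670 for Spink1, 0.0960 for Lpl and 0.145 for Sox9. The study itself states in its discussion that Sox9 expression did not change after hepatocyte CEBPA loss, unlike the edgeR value of Sox9 here. That statement names no assay or samples, so it may rest on other measurements. In these libraries limma on log2(TPM + 1) did not call Sox9 either. The sum of bile duct markers was 17.2 to 32.9 CPM in WT libraries against 537 to 748 CPM in KO libraries. Spp1, which encodes osteopontin, gave 575 CPM and Sox9 itself 54.7 CPM of the KO mean, while the duct keratins Krt19 and Krt7 were at 0.171 and 0.0499 CPM, Epcam at 0.296 CPM and Cftr at 0.0487 CPM. In OE against GFP 18 were tested, of which 12 rose and 5 fell (median 0.51), where 43.9% of all genes rose and 42.7% fell. Sall4 and Lin28b, at 0.0409 and 0.223 CPM in GFP, passed the filter through OE. Spink1, at 0.104 CPM in OE, passed it through GFP. Their direction was set by the filter, so that count and median are not read further. Cd24a, a progenitor surface protein, rose from 129 to 495 CPM (1.93 ± 0.03, adjusted p 1.21e-15), whereas Sox4 (-1.27 ± 0.03, adjusted p 2.92e-14) and Hmga2 (-3.48 ± 0.09, adjusted p 9.45e-14), a chromatin protein of fetal cells, fell. Lin28b, a repressor of let-7 microRNAs that was named after its values were seen, was 0.223 ± 0.113 CPM in GFP and 3.86 ± 0.380 CPM in OE (4.08 ± 0.25, adjusted p 1.17e-09).

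Adult hepatocyte genes were a list of 15. After loss of Cebpa 3 of 15 fell (median log2 fold change -0.41), where 1.02% of all genes tested fell. The 3 were Cyp1a2 (-1.81 ± 0.16, adjusted p 0.00391), Mup3 (-3.45 ± 0.52, adjusted p 0.0280) and Cyp3a11 (-1.68 ± 0.25, adjusted p 0.0280). Mup3 and Cyp3a11 each lost the call without any of the 3 WT libraries or without KO replicate 1 or 2, with an adjusted p of at most 0.111 for Mup3 and 0.0955 for Cyp3a11. In OE against GFP 14 were tested, of which 3 rose and 9 fell (median -1.07), where 43.9% of all genes rose and 42.7% fell. Cyp3a11 (-3.13 ± 0.05, adjusted p 1.01e-15) fell with Afp in OE, and Tdo2, which degrades tryptophan, rose (1.56 ± 0.04, adjusted p 1.56e-13).

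The genes whose pattern was most like that of each member were found by the root mean square difference of centred log2 levels over the 12 libraries among 11721 genes. For Afp these were Cldn4 (0.380), which was 114 CPM in GFP and 0.543 in OE, and Acta1 (0.396), at 71.3 and 1.27 CPM. For Igf2 they were Lpcat1 (0.210) and Ffar4 (0.215). For Igf2bp1 they were Gli3 (0.194), at 3.92 CPM in GFP and 19.8 in OE with none in WT and KO, and Ifnlr1 (0.210). Igf2bp2 was closest to Dapp1 (0.189) and Parm1 (0.220), and Igf2bp3 to Dok1 (0.122) and Tmem237 (0.146). Peg3 was closest to Tbc1d16 (0.224) and to Agrn (0.258), which was 52.1 CPM in WT, 60.4 in KO, 148 in GFP and 16.6 in OE. Cdkn1c was closest to Arid5a (0.239) and Ninl (0.240). The libraries of a group share their treatment, so these values describe likeness over 4 groups more than over 12 independent points.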

How the data were processed

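RNA-Seq was performed on poly(A) RNA from 12 libraries with a stranded mRNA kit. Per the labels and the submitters' processing notes, the authors used Trimmomatic 0.36, STAR 2.5.1, Picard 1.84, RSEM 1.2.22 and DESeq2 with the mm10 build. The deposited tables hold RSEM expected counts and TPM, and FPKM was not used. Expected counts were rounded, filtered with filterByExpr (minimum count 10, total 15), scaled by TMM and tested in edgeR 4.0.16 (R 4.3.3) with the quasi-likelihood F test, KO against WT, OE against GFP and GFP against WT, each in its own 6 libraries. Adjusted p under 0.05 was called. A fold against a group at 0 is a bound from 3 counts over the group. Count ratios have exact binomial 95% intervals, and reads are not independent molecules, so intervals and floors cover counting error only. Libraries are numbered as biological replicates without stated mice or cultures, so p values may measure technical spread. Named genes were the 10 members, Cebpa, the 3 genes with the lowest p of each other list in KO against WT and OE against GFP, and the 2 genes most like each member (among genes of at least 1 CPM on average, log2(CPM + 0.5)). Other genes are named as neighbours or known regulators of a member, as the extremes of a list or as the genes that carry a list's sum, and were chosen after their values were seen. Some genes the rule names are not reported here. The members and lists were chosen with earlier results of these data known. For Aldoa, which stands for 2 identifiers, the one with more counts was kept. The scripts were tested on simulated data, where 45% of 2-fold and 96% of 4-fold changes were recovered in KO against WT. The shares were 89% and 100% in OE against GFP and 91% and 99% in GFP against WT. Of the calls, 6% were false in KO against WT, 8.7% in OE against GFP and 6.86% in GFP against WT. Alternatives were DESeq2 1.42.0, RLE size factors, library totals, no filter, a stricter filter, limma 3.58.1 on log2(TPM + 1) and log2(TPM + 0.1), a joint fit of the 12 libraries, a block for replicate number, and fits without 1 library.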

Additional observations from a re-analysis of the deposited data

How the results depend on the processing

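The 7 members called in OE against GFP, and the 7 called in GFP against WT, kept their direction and call under each alternative in which they were tested. With the stricter filter, 3 members were left to test in GFP against WT, and all 3 were called. In KO against WT 1 member was called with DESeq2, without a filter and without KO replicate 3, against 0 in the other settings, and it was H19 each time. Over the 6 settings that leave out 1 library, the count of members called was 0 to 1 in KO against WT, 7 to 8 in OE against GFP, where the eighth was Gpc3, and 7 in GFP against WT. All genes called in KO against WT numbered 203, and 625 with DESeq2, 324 without a filter, 91 with the stricter filter, 112 on log2(TPM + 1), 103 on log2(TPM + 0.1), 1205 in the fit of 12 libraries and 42 to 396 when 1 library was left out, from 42 without WT replicate 1 to 396 without KO replicate 3. The log2 fold change of Peg3 in KO against WT was -0.12 and ranged from -0.378 to 0.0375 when 1 library was left out, with a change of sign without WT replicate 1 (0.0265) and without KO replicate 2 (0.0375). Causes were not tested.

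Same-numbered libraries correlated at -0.362 to 0.0839, under 0.1 in every pair, so the numbers were not taken to pair them. With the replicate block 87 genes and 0 members were called in KO against WT, 12816 and 7 in OE against GFP and 11115 and 7 in GFP against WT, and the block changed no other call of a member. Spink1, Lpl and Mup3 lost their calls in KO against WT with it.

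Scaling moved the balance of calls. In OE against GFP 6531 genes rose and 6362 fell with TMM, 7178 and 5673 with library totals and 7100 and 4093 on log2(TPM + 1), with a shift of the median gene by 0.14 and 0.27 on the log2 scale. In GFP against WT 6186 rose and 5282 fell with TMM, 10410 and 2074 with library totals and 9861 and 1632 on log2(TPM + 1), and the median gene was at 1.36 with library totals. In KO against WT 82 rose and 121 fell, and 32 and 80 on log2(TPM + 1). Afp in OE against GFP was -5.67 on log2(TPM + 1), and pseudocounts understate changes of low genes. Depth limits H19, Dlk1 and Gpc3, which had at most 27 counts in a library, and every value of Igf2, Igf2bp1 and Igf2bp3 in WT and KO.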
